A study of Mus musculus with 9 samples.

Results

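The comparison described here sets restimulated CD4 T cells with high Hopx against restimulated CD4 T cells with low Hopx. It uses 6 of the 9 libraries of the series, 3 labelled Hopx High and 3 labelled Hopx Low, and all 23171 gene rows of the deposited table. The naive libraries do not enter it. Per the labels' protocols, CD4 T cells came from lymph nodes and spleens of C57BL6 mice that had received chimeric antibodies, which carry an antigen to dendritic cells, 5 days before the cells were sorted. Both groups were then restimulated in culture for 12 h by antigen-presenting cells and resorted, so both carry the injection, the culture and the second sort. No label gives a genotype or an age, and none says that replicates came from separate animals, so a p-value here measures the spread among these samples only. The stated aim was to compare antigen-specific T cells that dendritic cells had activated in the mouse and that expressed Hopx at different levels.

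The Hopx protein has a homeodomain but no DNA contact of its own and acts through partner proteins. Dendritic cells that present antigen without inflammation can drive T cells towards tolerance, and a later encounter with antigen tests whether such cells divide, differentiate and secrete cytokines. A T cell that leaves quiescence switches off Klf2 and its targets, enters the cell cycle under E2F control and, in S phase, makes the replication-dependent histone messages, which end in a stem-loop and not in a poly(A) tail. Tbx21, which encodes T-bet, directs the Th1 fate.

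Values are the deposited coverage with the 1 added base removed, on a scale of bases per megabase (Mb) of summed coverage. The Hopx High libraries held 800, 364 and 203 megabases in replicates 1, 2 and 3, against 420, 330 and 442 megabases in Hopx Low. If reads are taken to cover 100 bases, 1 read adds 0.125 to 0.492 bases per Mb, and values below that are not resolved. Same-numbered libraries deviated together from their group means over 7857 genes, with correlations of 0.449, 0.423 and 0.173, and the difference was fitted within the 3 pairs. Pair 3 stood apart. Its median log2 difference over the 10846 genes tested, Hopx High minus Hopx Low, was -0.75, against 0.07 in pair 1 and -0.03 in pair 2, and 21.5% of its differences were above 0. Hopx High replicate 3 was the shallowest library and had Lars2, a mitochondrial leucyl-tRNA synthetase gene, as its most covered row, at 148262 bases per Mb. Lars2 had at most 17218 bases per Mb in the other 5 libraries. Gas5, a host gene of small nucleolar RNAs, took 1.16% to 21.3% of the coverage in Hopx High and 4.09% to 18.5% in Hopx Low.

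The T cell label was met by its markers. Cd4 had 228 to 409 bases per Mb in Hopx High and 278 to 501 in Hopx Low, and Cd3e had 192 to 319 in Hopx High and 184 to 339 in Hopx Low. Cd8a was listed at 0 in 5 of the 6 libraries, while Cd8b1 had 14.8 to 31.1 bases per Mb in Hopx High and 25.3 to 31.1 in Hopx Low.

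The transcript of Hopx had 8.95, 7.79 and 4.89 bases per Mb in Hopx High replicates 1, 2 and 3, against 3.32, 6.90 and 3.29 in Hopx Low replicates 1, 2 and 3. The Hopx High library was the higher one in 3 of 3 pairs, but the groups overlapped, because Hopx Low replicate 2 was above Hopx High replicate 3. The mean was 7.21 ± 2.09 in Hopx High and 4.50 ± 2.07 in Hopx Low (SD, n = 3 each). The log2 difference was 0.60 ± 0.44 (SE), with a 95% interval of -0.35 to 1.56, and did not pass (limma adjusted p = 0.566). A difference in Hopx RNA between the sorted groups was therefore not resolved by these 6 libraries.

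Across the transcriptome, 60 genes rose and 15 fell in Hopx High at a limma adjusted p of 0.05. That is 0.553% and 0.138% of the 10846 genes tested, and 0.691% for both directions. All 75 had the same sign in 3 of 3 pairs, and the groups did not overlap for 48 of the 60 and 15 of the 15. Over all genes tested, 11.8% were higher and 27.1% lower in all 3 pairs, and 4.55% were higher and 9.98% lower with groups that did not overlap. Of the 60 genes that rose, 41 encode replication-dependent histones. The other 19 include Tbx21 and its neighbour Tbkbp1, genes of cytokines and their receptors, and genes of cell division. The 15 that fell include the tissue-exit receptor S1pr1, its activator Klf2 and other genes of resting T cells. The calls depended on the fit. A limma fit that also held the naive libraries, with naive replicates 1 and 2 averaged and no replicate block, called 0 genes (487 of 10825 at an unadjusted p of 0.05). The paired fit without pair 3 called 714 higher and 566 lower, the same 75 genes among them.

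**Figure D1:**
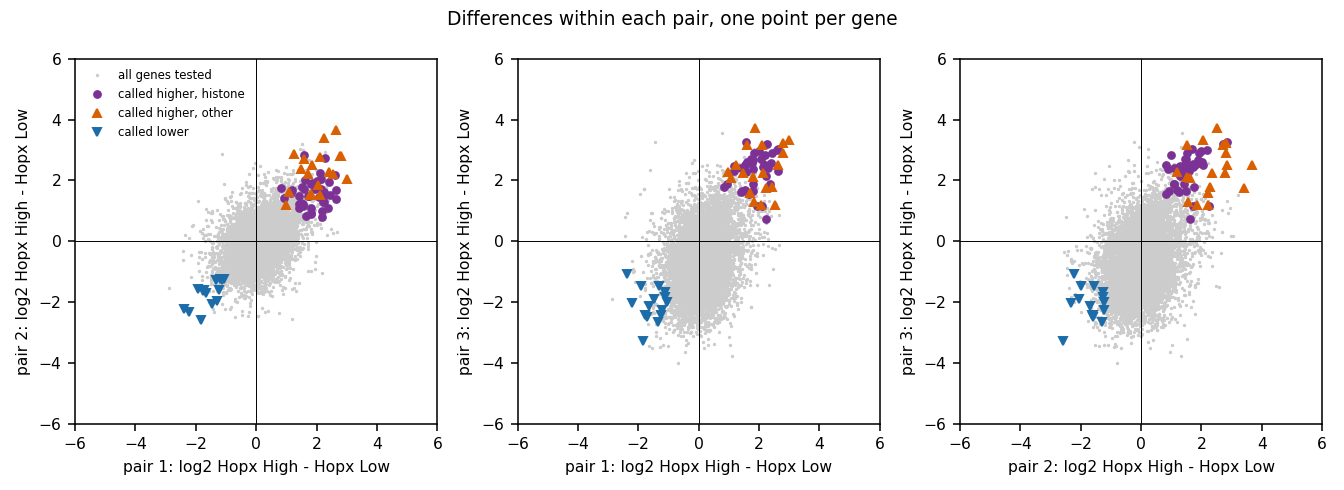
Log2 difference, Hopx High minus Hopx Low, within one pair of libraries (x axis) against another (y axis), 1 point per gene tested, with the genes at an adjusted p of 0.05 in colour. All 60 genes called higher lie above 0 on both axes and all 15 called lower lie below 0 on both, while the grey cloud of pair 3 sits below 0.

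The pairs resembled each other to differing degrees. Across the 10846 genes, which are not independent replicates, the log2 differences of pairs 1 and 2 correlated at r = 0.480, those of pairs 1 and 3 at 0.304 and those of pairs 2 and 3 at 0.327.

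**Figure D2:**
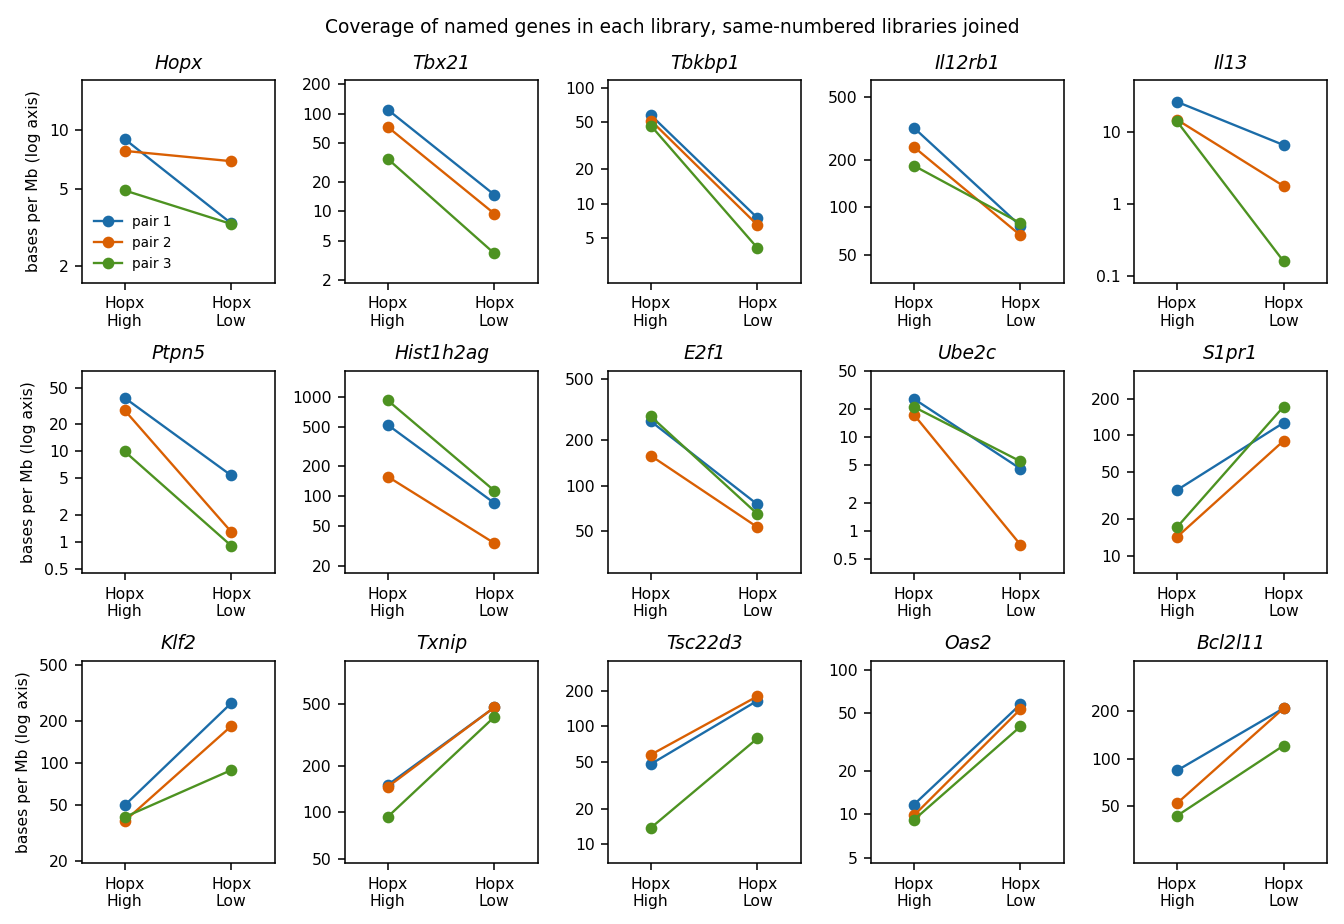
Coverage in bases per Mb (log axis) of 15 genes in each library, with Hopx High on the left, Hopx Low on the right and a line joining each same-numbered pair. Tbx21, Tbkbp1, Il12rb1, Il13, Ptpn5, Hist1h2ag, E2f1 and Ube2c were higher in Hopx High in 3 of 3 pairs, and the 6 genes from S1pr1 to Bcl2l11 were lower in 3 of 3 pairs, while the groups of Hopx overlapped.

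The remaining genes called outside the histones complete the account. Mybl2, a transcription factor of the cell cycle, rose by a log2 difference of 1.84, and Rmi2, a subunit of the complex that dissolves recombination intermediates, by 1.56. Plxnc1, a semaphorin receptor, rose by 1.98, Lrfn4, an adhesion molecule, by 2.03, Marcksl1, an actin-regulating protein, by 1.48, St6galnac6, a sialyltransferase, by 1.59, and D10Bwg1379e by 2.20. Als2cl, Fam169b and Tecpr1 fell, with log2 differences of -1.40, -1.43 and -1.34. The limma adjusted p was 0.0462 for Als2cl, 0.0476 for Fam169b and 0.0499 for Tecpr1, and 0.0394 for Marcksl1, 0.0394 for St6galnac6 and 0.0499 for D10Bwg1379e. Without the replicate block Als2cl, Fam169b and Tecpr1 missed the threshold (0.0859, 0.0690 and 0.127), as did Marcksl1 (0.141) and St6galnac6 (0.0556). All 10 genes of this paragraph missed it without pair 2, and all but D10Bwg1379e without pair 1. The other 12 genes that rose and 12 that fell are given with their values below, by role.

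The histone genes are described first, with the start regions of 3 of them, because they make up most of the genes that rose. The sequences are the 250 bases upstream of the annotated start, 5′ to 3′ on the gene's strand, from RefSeq GRCm38.p6. Hist1h2ag encodes an H2A and lies on the minus strand, with the window at chr13:22042950-22043199. Hist1h2ab, another H2A gene, lies on the plus strand (chr13:23750838-23751087), and Hist1h3c, an H3 gene, on the minus strand (chr13:23745522-23745771). Capitals mark 5 searched motifs on either strand. They are the CCAAT box with the letters CCAAT, the TATA box as TATAAA, one E2F spelling as TTTGGCG, another as TTTCGCG, and the E-box as CACGTG.
Hist1h2ag: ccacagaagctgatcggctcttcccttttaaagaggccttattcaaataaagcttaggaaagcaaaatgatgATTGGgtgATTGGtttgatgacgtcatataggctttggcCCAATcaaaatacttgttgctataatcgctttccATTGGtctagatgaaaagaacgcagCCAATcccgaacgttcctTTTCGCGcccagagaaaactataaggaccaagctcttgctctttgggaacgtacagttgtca
Hist1h2ab: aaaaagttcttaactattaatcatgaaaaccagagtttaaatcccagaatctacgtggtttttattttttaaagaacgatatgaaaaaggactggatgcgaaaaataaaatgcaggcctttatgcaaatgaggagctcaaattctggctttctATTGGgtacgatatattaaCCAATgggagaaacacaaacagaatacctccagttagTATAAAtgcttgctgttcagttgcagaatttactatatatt
Hist1h3c: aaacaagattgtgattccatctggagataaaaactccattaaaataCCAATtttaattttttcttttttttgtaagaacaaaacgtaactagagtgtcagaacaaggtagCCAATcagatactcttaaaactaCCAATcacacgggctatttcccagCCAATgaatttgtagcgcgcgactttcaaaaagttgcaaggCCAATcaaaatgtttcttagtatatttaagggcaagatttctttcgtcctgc
CCAAT or its complement recurs in all 3 windows, Hist1h2ab also holds TATAAA, and Hist1h2ag also holds TTTCGCG. A promoter was matched for 8683 of the 10846 tested genes and for 57 of the 63 tested histone genes. CCAAT was present in 46 of the 57 (80.7%), against 37.8% of all 8683 promoters. TATAAA was present in 27 of the 57 (47.4%), against 6.15% of all, and TTTCGCG in 11 of the 57 (19.3%), against 1.68% of all. The spelling TTTGGCG was in 0 of the 57 and in 2.26% of all, and the E-box CACGTG in 0 of the 57 and in 8.90% of all. Divergent histone neighbours share parts of their windows, so these promoters are not independent of each other, and a match is a description of letters and not of binding.

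Replication-dependent histone genes supply the nucleosomes of newly copied DNA. Of the 63 tested, 41 rose and 0 fell, and 57 were higher in all 3 pairs. Over all genes tested, 0.553% rose and 11.8% were higher in all 3 pairs. The median log2 difference of the list was 1.64, against -0.25 over all genes, and within the pairs it was 1.58, 1.27 and 2.09. The summed coverage of the list was 41161, 34985 and 43930 bases per Mb in Hopx High replicates 1, 2 and 3, against 18006, 23576 and 16713 in Hopx Low replicates 1, 2 and 3. Every Hopx High library was above every Hopx Low library, at a mean of 40025 ± 4579 in Hopx High and 19432 ± 3647 in Hopx Low (SD, n = 3 each). Without pair 3, 58 of the 63 were called higher, where 6.57% of all genes were called higher and 5.21% lower.

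Hist1h2ah, an H2A gene, had 331, 117 and 614 bases per Mb in Hopx High replicates 1, 2 and 3, against 68.4, 16.8 and 66.1 in Hopx Low. Its groups did not overlap, and its log2 difference was 2.73 ± 0.30 (SE, limma adjusted p = 0.00175). Hist1h2ag, whose start region is shown above, had 521, 157 and 918 bases per Mb in Hopx High and 85.1, 33.6 and 113.5 in Hopx Low. Its log2 difference was 2.60 ± 0.29 (SE, limma adjusted p = 0.00175), and the pairs gave 2.60, 2.19 and 3.00. For both genes replicate 2 was the lowest library within each group. Hist1h3c had 455.5, 202 and 664 bases per Mb in Hopx High and 72.5, 61.9 and 80.3 in Hopx Low, a log2 difference of 2.45 (limma adjusted p = 0.00323). Hist1h2ab had 406, 189 and 916 in Hopx High and 101, 47.0 and 115 in Hopx Low, a log2 difference of 2.32 (limma adjusted p = 0.00323). These 4 genes passed whichever pair was left out.

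The rise covered all 5 classes but not evenly. H2A had 11 of 16 tested genes called and a median log2 difference of 1.94, H3 had 11 of 12 and 1.94, H4 had 10 of 13 and 1.70, and H2B had 8 of 17 and 1.25. The linker histone H1, which binds DNA between nucleosomes, had 1 of 5 called and a median of 0.83. Hist1h1e, a linker histone, had 2841, 3658 and 795 bases per Mb in Hopx High and 3096, 7434 and 1921 in Hopx Low, a log2 difference of -0.81 that did not pass (limma adjusted p = 0.309). It was 1 of 2 histone genes with a negative difference, the other being Hist2h2be at -0.39, and both were named after their values were seen. Of the 41 genes that rose, 37 lie on chromosome 13 and 4 on chromosome 3. Among the called genes, 28 pairs were direct neighbours on their chromosome with no tested gene between them, and 27 of these were both histone genes. Histone coding sequences are near-identical within a class and neighbours can abut, so the split of reads among single copies is uncertain.

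The calls of 12 of the 41 histone genes turned on the pairing and missed the threshold without the replicate block. Hist1h4n, an H4 gene, had 755, 487 and 1176 bases per Mb in Hopx High replicates 1, 2 and 3, against 174, 102 and 530.3 in Hopx Low, and its highest Hopx Low library was above its lowest Hopx High library. Its log2 difference of 1.83 passed with the replicate block (limma adjusted p = 0.00893) and not without it (0.0605). Hist1h4m, Hist1h2bb and Hist1h2ak, at log2 differences of 1.60, 1.59 and 1.53, were among the 12. The others were Hist1h4d, Hist2h4, Hist1h4h, Hist1h2bj, Hist1h2ac, Hist1h2bq, Hist1h1b and Hist1h4c, with limma adjusted p-values without the block between 0.0709 for Hist1h2bj and 0.259 for Hist1h4c.

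The list of replication-independent histone variants held no call. Of 9 variants tested 0 were called by limma, and the median log2 difference was -0.32, against -0.25 over all genes. At an unadjusted p of 0.05, 1 was higher and 1 lower, where 4.18% of all genes were higher and 8.58% lower. H2afx, which encodes the H2A.X form that marks DNA breaks and whose gene also makes a stem-loop message in S phase, had 1205, 382 and 1439 bases per Mb in Hopx High and 540.1, 252 and 306.5 in Hopx Low, a log2 difference of 1.33 (limma adjusted p = 0.0901). H3f3b, which encodes H3.3, had 496, 304 and 269.8 in Hopx High and 664, 527 and 508 in Hopx Low, a log2 difference of -0.71 (limma adjusted p = 0.312). Slbp, whose protein binds the histone stem-loop, had 41.8, 51.0 and 29.7 in Hopx High and 33.3, 33.5 and 52.4 in Hopx Low. The groups of Slbp overlapped, at a log2 difference of 0.04 (limma adjusted p = 0.971).

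Among regulators of the cycle, E2f1 rose. This transcription factor switches on the genes of DNA synthesis. E2f1 had 263, 157 and 284 bases per Mb in Hopx High replicates 1, 2 and 3, against 75.3, 53.4 and 65.1 in Hopx Low, so the lowest Hopx High library was above the highest Hopx Low library. Its log2 difference was 1.81 ± 0.29 (SE, limma adjusted p = 0.00893), with an adjusted p of 0.114 without pair 1 and 0.233 without pair 2. It was the 1 gene called of 26 E2F and cyclin genes, where 0.553% of all genes rose. The median of the 26 was 0.29, against -0.25 over all genes. Mxd3, a Myc-network repressor made in S phase, had 8.30, 8.60 and 8.97 bases per Mb in Hopx High and 0.743, 0.965 and 1.87 in Hopx Low. It rose by a log2 difference of 2.17 (limma adjusted p = 0.0375), lost without pair 1 (0.274) or pair 2 (0.425), and was 1 of 11 Myc-network genes called.

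Of 61 genes of mitosis and G2/M, 1 rose and 0 fell, although 56 had a positive difference, 38 were higher in all 3 pairs and 25 were higher at an unadjusted p of 0.05. Over all 10846 genes tested, 3282 had a positive difference, 11.8% were higher in all 3 pairs and 4.18% were higher at an unadjusted p of 0.05. The list's median was 0.84, and within pairs it was 1.28, 1.10 and 0.31, which is 1.21, 1.14 and 1.06 above the all-gene median of the same pair. Its summed coverage was 1169, 899 and 869 bases per Mb in Hopx High replicates 1, 2 and 3, against 611.5, 500.4 and 737 in Hopx Low, with no overlap. Ube2c, the ubiquitin-conjugating enzyme of the anaphase-promoting complex, was the gene that rose. It had 25.3, 17.2 and 20.8 in Hopx High and 4.59, 0.716 and 5.49 in Hopx Low, a log2 difference of 2.46 (limma adjusted p = 0.0202, and 0.681 without pair 2). Kif11, a spindle motor, had 10.6, 12.9 and 17.4 in Hopx High and 2.24, 2.93 and 2.98 in Hopx Low. Its log2 difference of 1.96 missed the threshold (limma adjusted p = 0.0567) and passed without the replicate block (0.0306). Outside the list, Cit, the citron kinase of cytokinesis, rose by a log2 difference of 2.26, with 9.58, 6.65 and 12.6 bases per Mb in Hopx High and 1.45, 1.67 and 0.529 in Hopx Low (limma adjusted p = 0.0419, 0.146 without pair 1 and 0.0797 without pair 2). Without pair 3, 35 of the 61 were called higher and 0 lower, where 6.57% of all genes were higher.

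The machinery of DNA copying differed more between the pairs than the genes of mitosis did. Of 44 genes of replication origins and forks 0 passed in limma, with 10 higher at an unadjusted p of 0.05 and 40 positive. Over all 10846 genes tested, 4.18% were higher at an unadjusted p of 0.05 and 3282 were positive. The median of the 44 was 0.33, from 0.83 and 0.70 in pairs 1 and 2 and -0.48 in pair 3. These medians are 0.76, 0.73 and 0.27 above the all-gene median of the same pair. Mcm2, a subunit of the replicative helicase, had 527, 484 and 209.7 bases per Mb in Hopx High and 349, 374 and 374 in Hopx Low, a log2 difference of 0.05 (limma adjusted p = 0.960, and 0.48 with 0.0301 without pair 3). Hopx High replicate 3 was its lowest library and the other 2 Hopx High libraries were its highest. Mcm5, another subunit, had 468, 359 and 165 in Hopx High and 260, 225 and 289 in Hopx Low, a log2 difference of 0.24 (limma adjusted p = 0.773, and 0.76 with 0.000222 without pair 3). Of 12 genes of deoxynucleotide synthesis 0 passed in limma, with 3 higher at an unadjusted p of 0.05 and a median of 0.33. Dut, which clears dUTP, had 217, 67.5 and 150.4 in Hopx High and 107, 36.0 and 61.7 in Hopx Low, higher in 3 of 3 pairs at a log2 difference of 1.06 (limma adjusted p = 0.159). Samhd1, which degrades deoxynucleotides, had a log2 difference of 0.08 (limma adjusted p = 0.923). Without pair 3, 24 of the 44 and 6 of the 12 were called higher, where 6.57% of all genes were.

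**Figure D3:**
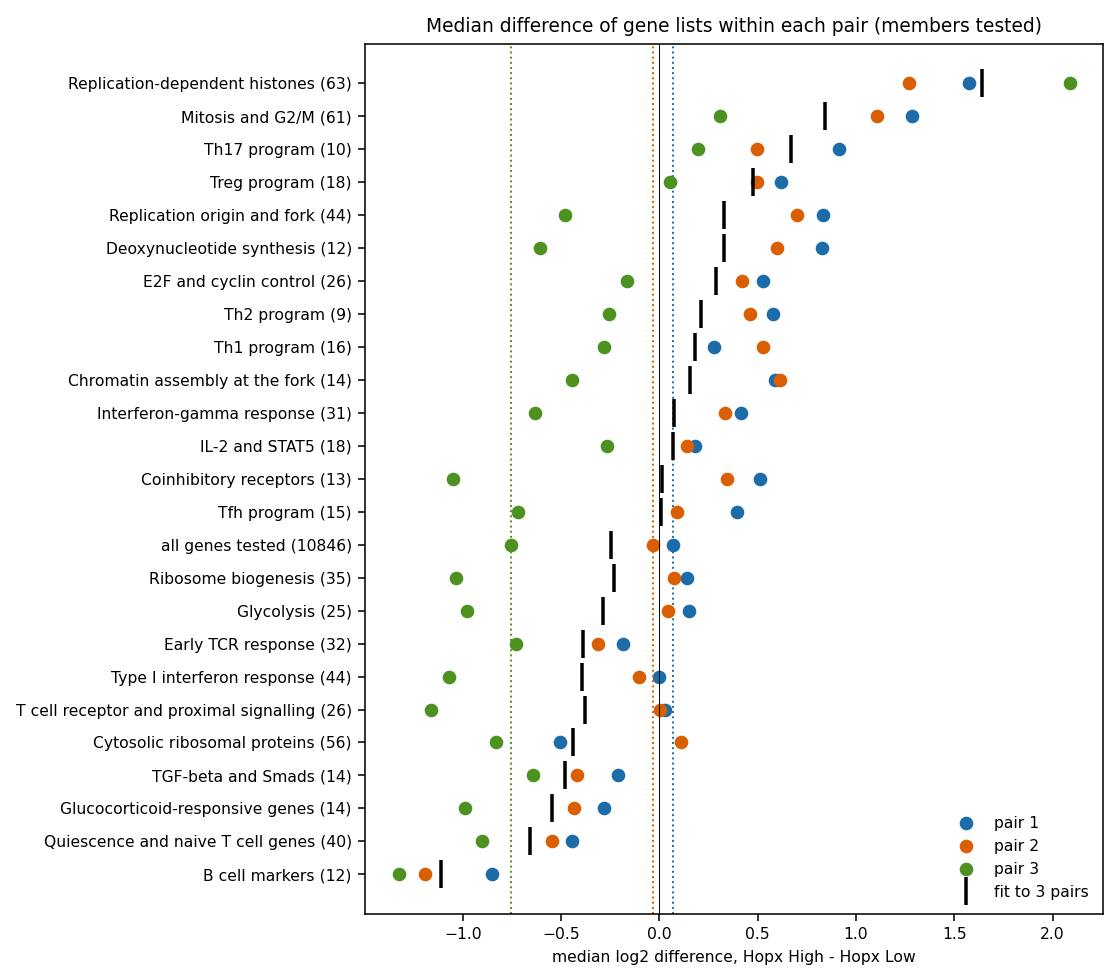
Median log2 difference, Hopx High minus Hopx Low, of gene lists within each pair (coloured points) and in the fit to 3 pairs (black bars), with the number of members tested in brackets and the all-gene median of each pair as a dotted line. The replication-dependent histones lie at 1.27 to 2.09 in the pairs, and the quiescence genes at -0.44 to -0.90. In pair 3 the all-gene median is -0.75, and the quiescence genes at -0.90 lie close to it.

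Tbx21 and Tbkbp1 rose by a similar step in every pair. Tbx21 lies on chromosome 11 at 97098007 to 97115331 and Tbkbp1, which encodes a binding partner of the kinase TBK1, at 97136171 to 97151506 on GRCm38.p6. Both are on the minus strand, 20839 bases apart with no tested gene between them, and they were the 1 pair of called neighbours that were not both histones. Their start regions are shown because 2 neighbours rose together. The windows are chr11:97115332-97115581 for Tbx21 and chr11:97151507-97151756 for Tbkbp1, with capitals as before.
Tbx21: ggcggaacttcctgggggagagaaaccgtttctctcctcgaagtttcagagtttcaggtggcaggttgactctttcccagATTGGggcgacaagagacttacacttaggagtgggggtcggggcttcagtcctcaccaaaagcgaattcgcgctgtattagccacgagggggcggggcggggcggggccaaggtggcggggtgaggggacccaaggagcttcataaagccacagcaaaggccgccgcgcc
Tbkbp1: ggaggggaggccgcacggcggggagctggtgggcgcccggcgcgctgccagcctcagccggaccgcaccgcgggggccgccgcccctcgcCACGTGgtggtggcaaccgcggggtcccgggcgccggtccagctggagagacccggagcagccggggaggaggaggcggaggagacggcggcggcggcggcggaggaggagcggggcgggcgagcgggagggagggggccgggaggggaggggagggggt
The Tbx21 window holds CCAAT on the opposite strand and the Tbkbp1 window holds CACGTG, the E-box, and they share none of the 5 motifs.

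Tbx21 had 110.0, 73.1 and 34.5 bases per Mb in Hopx High replicates 1, 2 and 3, against 14.8, 9.49 and 3.72 in Hopx Low replicates 1, 2 and 3. The order of the replicates was the same in both groups, and the groups did not overlap. The pairs gave log2 differences of 2.81, 2.82 and 2.91, and the fit gave 2.85 ± 0.36 (SE, limma adjusted p = 0.00323). Tbkbp1 had 57.8, 51.9 and 46.9 bases per Mb in Hopx High and 7.51, 6.53 and 4.14 in Hopx Low. Its pairs gave 2.79, 2.81 and 3.22, and the fit 2.94 ± 0.38 (SE, limma adjusted p = 0.00323). Both passed with any 1 pair left out and did not pass in the limma fit with the naive libraries (adjusted p = 0.269 for each) or with no filter on low values (0.278 for each). Whether strand was used in counting is not stated in the sources used here, and an antisense or read-through share cannot be told apart from either gene.

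The Th1 list had a median of 0.18, against -0.25 over all genes. It held 16 tested genes, of which 2 rose and 0 fell, where 0.553% of all genes rose and 0.138% fell. The second was Il12rb1, a chain shared by the receptors for IL-12 and IL-23. Il12rb1 had 318, 240.2 and 183 bases per Mb in Hopx High and 76.0, 66.3 and 79.1 in Hopx Low, with no overlap. Its log2 difference was 1.70 ± 0.30 (SE, limma adjusted p = 0.0145), with an adjusted p of 0.275 without pair 1 and 0.647 without pair 2. Il12rb2, the partner chain of the IL-12 receptor, named after its values were seen, had 40.2, 34.0 and 21.9 in Hopx High and 13.0, 3.91 and 8.16 in Hopx Low. Its log2 difference of 1.90 passed without the replicate block (limma adjusted p = 0.0323) and missed with it (0.0654). Ifng, the main Th1 cytokine, was below the filter, with 2.08, 1.12 and 1.75 bases per Mb in Hopx High, and was listed at 0 in all 3 Hopx Low libraries. Il2, the growth factor of activated T cells, had 51.0, 38.8 and 12.1 in Hopx High and 40.1, 40.3 and 33.9 in Hopx Low, and its groups overlapped (log2 difference -0.38, limma adjusted p = 0.691).

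Other surface and secreted products rose beside them. Il13, a type 2 cytokine and the 1 gene of 9 in the Th2 list that passed, had 26.6, 15.0 and 14.1 bases per Mb in Hopx High and 6.64, 1.78 and 0.158 in Hopx Low. Its value in Hopx Low replicate 3 is below that of 1 assumed read. The log2 difference was 2.69 ± 0.47 (SE, limma adjusted p = 0.0145), with 0.0708 without pair 2. Cd70, the ligand of the costimulatory receptor CD27, had 14.2, 9.89 and 11.6 in Hopx High and 4.05, 0.676 and 0.398 in Hopx Low, a log2 difference of 2.49 (limma adjusted p = 0.0219, and 0.233 without pair 2). Pkdcc, a secreted tyrosine kinase, had 27.3, 15.0 and 30.1 in Hopx High and 2.56, 2.88 and 2.07 in Hopx Low, a log2 difference of 2.79 (limma adjusted p = 0.00844). All 3 had groups that did not overlap, and Pkdcc passed with any pair left out. Among all genes tested, 0.553% rose and 4.55% were higher with groups that did not overlap.

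Ptpn5 and Scin act inside the cell. Ptpn5, a tyrosine phosphatase of MAP kinases, had 38.5, 28.1 and 9.91 bases per Mb in Hopx High and 5.40, 1.30 and 0.911 in Hopx Low, a log2 difference of 2.93 ± 0.44 (SE, limma adjusted p = 0.00578, and 0.155 without pair 2). Scin, an actin-severing protein, had 15.8, 16.0 and 16.1 in Hopx High and 2.88, 1.49 and 2.62 in Hopx Low. The 3 Hopx High libraries were nearly level, and the log2 difference was 2.38 (limma adjusted p = 0.0185, 0.0673 without pair 1 and 0.456 without pair 2).

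Regulatory T cell genes did not pass. Of 18 tested 0 were called by limma, with a median of 0.48. Of the 18, 5 were higher at an unadjusted p of 0.05, 14 were positive and 9 were higher in all 3 pairs. Without pair 3, 10 of 17 were called higher. Over all 10846 genes tested, 4.18% were higher at an unadjusted p of 0.05, 3282 were positive and 11.8% were higher in all 3 pairs. The share of all genes called higher without pair 3 was 6.57%. Foxp3, which defines the lineage, had 8.29, 3.61 and 4.71 bases per Mb in Hopx High and 4.47, 2.49 and 4.68 in Hopx Low, with overlapping groups (log2 difference 0.39, limma adjusted p = 0.713). Lag3, an inhibitory receptor, had 1489.9, 1358 and 1030.4 in Hopx High and 931, 1070.5 and 512 in Hopx Low, with Hopx Low replicate 2 above Hopx High replicate 3 (log2 difference 0.68, limma adjusted p = 0.337). Il2rb, the shared IL-2 and IL-15 receptor chain, had a log2 difference of 0.40 (limma adjusted p = 0.528). Of 13 genes for Hopx partners and AP-1 factors 0 passed, with 2 higher and 1 lower at an unadjusted p of 0.05 and a median of -0.16, which was 0.08 with the median gene as the scale. Junb, an AP-1 subunit, had 2282, 1153 and 2677 in Hopx High and 1936, 734 and 1236 in Hopx Low (log2 difference 0.67, limma adjusted p = 0.362). The T cell receptor response gave 0 of 32 called, a median of -0.39 and 8 lower at an unadjusted p of 0.05, where 8.58% of all genes were. Nr4a1, an immediate target of receptor signalling, had 1629, 712.5 and 653 in Hopx High and 3536, 1645 and 1319 in Hopx Low, lower in 3 of 3 pairs with groups that overlapped (log2 difference -1.11, limma adjusted p = 0.0907). Irf4, induced in proportion to receptor signal strength, had a log2 difference of 0.01 (limma adjusted p = 0.990). Of 15 anergy genes 0 passed, with 3 lower at an unadjusted p of 0.05 and a median of -0.22, which was 0.02 with the median gene as the scale, and Cblb, a ubiquitin ligase that raises the activation threshold, had -0.53 (limma adjusted p = 0.431).

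Genes of quiescent and naive T cells were the largest group among the 15 that fell. Of 40 tested, 6 fell and 0 rose, where 0.138% of all genes fell, and the 6 were S1pr1, Klf2, Txnip, Tsc22d3, Btg2 and Igfbp4. Like the other lists, this one was chosen with earlier results of these data known. Of the 40, 38 had a negative difference, 29 were lower in all 3 pairs and 15 were lower at an unadjusted p of 0.05. Over all 10846 genes tested, 7564 had a negative difference, 27.1% were lower in all 3 pairs and 8.58% were lower at an unadjusted p of 0.05. The median of the 40 was -0.66, and -0.44, -0.55 and -0.90 within the pairs, against all-gene medians of 0.07, -0.03 and -0.75. The summed coverage was 6173, 5017 and 3644 bases per Mb in Hopx High replicates 1, 2 and 3, against 9851, 8713.5 and 10254 in Hopx Low. No Hopx High library reached the lowest Hopx Low library.

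S1pr1, the receptor by which T cells leave lymphoid tissue, had 35.1, 14.3 and 17.2 bases per Mb in Hopx High and 127.5, 90.2 and 174 in Hopx Low. The groups did not overlap, and S1pr1 fell by 2.56 ± 0.35 on the log2 scale (SE, limma adjusted p = 0.00445), with a call whichever pair was left out. Klf2, the transcription factor that maintains S1pr1 in resting T cells, had 50.1, 38.7 and 41.3 in Hopx High and 267, 183 and 89.1 in Hopx Low. Its log2 difference was -1.90 ± 0.33 (SE, limma adjusted p = 0.0145), and it did not pass with the median gene as the scale (0.121), with quantile normalization (0.0643) or without pair 1 (0.256) or pair 2 (0.601). These are the 2 genes that fell among 24 of exit, homing and adhesion, of which 0 rose, where 0.138% of all genes fell. Tcf7, a transcription factor of naive and memory T cells, named after its values were seen, had 1048, 884 and 528 in Hopx High and 2083, 1948 and 1808 in Hopx Low. Its log2 difference of -1.30 missed the threshold (limma adjusted p = 0.0540).

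Txnip, which restrains glucose uptake, had 151, 146 and 93.6 bases per Mb in Hopx High and 476.5, 477 and 414 in Hopx Low, a log2 difference of -1.83 (limma adjusted p = 0.00578, and 0.204 without pair 2). Btg2, an antiproliferative gene, had 159, 173 and 46.8 in Hopx High and 407, 422 and 301 in Hopx Low, a log2 difference of -1.76 (limma adjusted p = 0.0185, and 0.155 without pair 2). Trp53inp1, a p53-induced gene of cell arrest and autophagy, had 108, 121 and 104 in Hopx High and 256, 369 and 566 in Hopx Low, a log2 difference of -1.76 (limma adjusted p = 0.0143, and 0.271 without pair 2). For each of these 3 genes every Hopx High library was below every Hopx Low library.

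Tsc22d3, which encodes the glucocorticoid-induced leucine zipper, had 47.7, 57.3 and 13.7 bases per Mb in Hopx High and 164.5, 179 and 78.7 in Hopx Low, a log2 difference of -1.94 (limma adjusted p = 0.0105). Sgk1, a kinase induced by serum and glucocorticoids, had 13.4, 12.0 and 8.48 in Hopx High and 38.9, 53.4 and 34.3 in Hopx Low, a log2 difference of -1.81 (limma adjusted p = 0.0394). These were the 2 that fell of 14 glucocorticoid-responsive genes, of which 0 rose, where 0.138% of all genes fell. The median of the 14 was -0.54, against -0.25 over all genes. Bcl2l11, which encodes the death-promoting protein Bim, had 84.2, 52.2 and 43.5 in Hopx High and 208, 208 and 121 in Hopx Low, a log2 difference of -1.58 (limma adjusted p = 0.0235), the 1 call among 16 Bcl-2 family genes. Without pair 1 the adjusted p was 0.0690 for Tsc22d3, 0.184 for Sgk1 and 0.186 for Bcl2l11, and without pair 2 it was 0.265, 0.917 and 0.951 in the same order.

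Oas2, an interferon-induced sensor enzyme of double-stranded RNA, had 11.6, 9.80 and 9.13 bases per Mb in Hopx High and 57.6, 53.3 and 40.4 in Hopx Low, a log2 difference of -2.19 (limma adjusted p = 0.0116, 0.0991 without pair 1 and 0.456 without pair 2). It was the 1 call among 44 type I interferon genes, where 0.138% of all genes fell. Their median was -0.39, from -0.00 and -0.10 in pairs 1 and 2 and -1.07 in pair 3, against all-gene medians of 0.07, -0.03 and -0.75. Neurl3, a ubiquitin ligase, had 17.1, 13.9 and 13.8 in Hopx High and 58.4, 44.1 and 82.2 in Hopx Low, a log2 difference of -1.93 (limma adjusted p = 0.0218). Igfbp4, which binds insulin-like growth factors, had 39.8, 30.8 and 41.6 in Hopx High and 153, 92.2 and 116 in Hopx Low, a log2 difference of -1.64 (limma adjusted p = 0.0222). Ppp1r15a, which reverses the stress phosphorylation of a translation factor, had 172, 113.5 and 52.5 in Hopx High and 399.6, 268 and 254 in Hopx Low, a log2 difference of -1.56 (limma adjusted p = 0.0276, and 0.0690 without the replicate block). All 4 had groups that did not overlap. Without pair 1 the adjusted p was 0.117 for Neurl3, 0.376 for Igfbp4 and 0.134 for Ppp1r15a, and without pair 2 it was 0.388, 0.681 and 0.425 in the same order. S100a10, which encodes a calcium-binding partner of annexin A2, had 169.9, 214 and 48.8 in Hopx High and 412, 396 and 549 in Hopx Low, and its log2 difference of -1.87 passed without the replicate block (0.0304) and missed with it (0.0540).

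**Figure D4:**
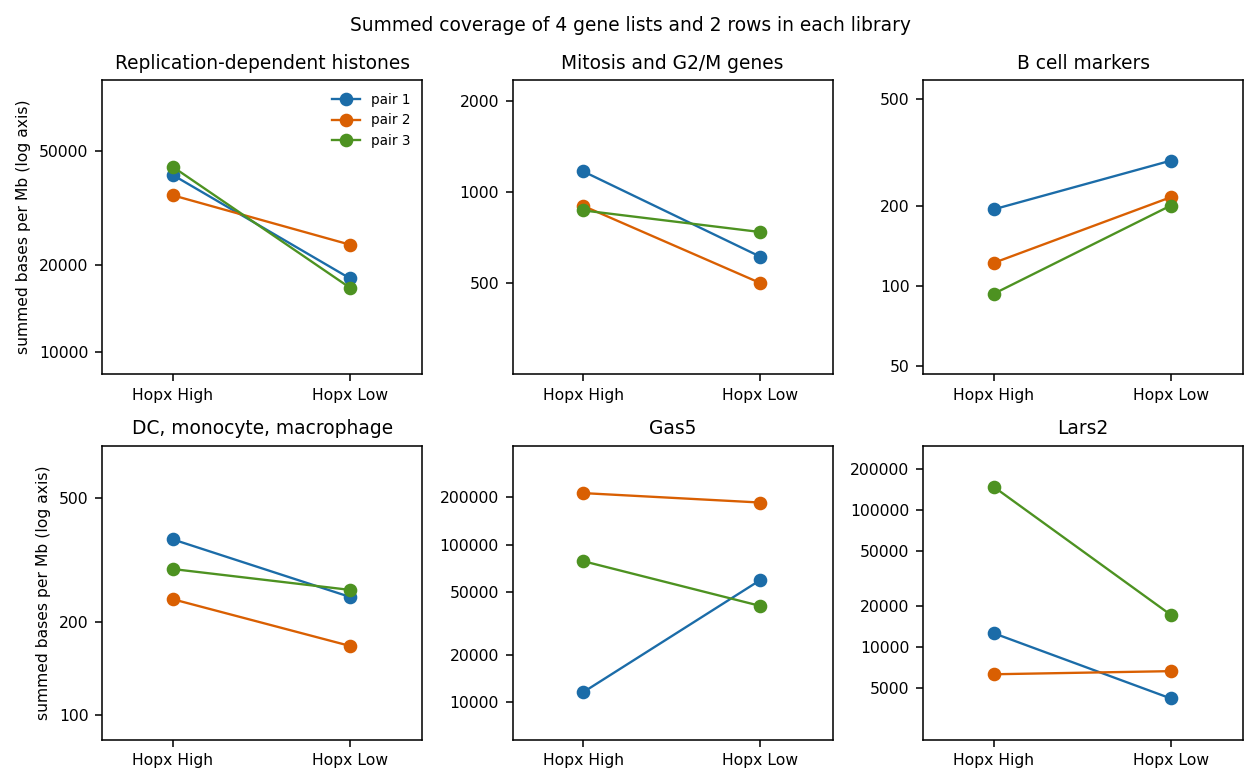
Summed bases per Mb (log axis) of 4 gene lists and of the rows Gas5 and Lars2 in each library, Hopx High on the left and Hopx Low on the right, same-numbered libraries joined. Histone, G2/M and B cell marker sums do not overlap between the groups, and Lars2 is highest in Hopx High replicate 3 at 148262.

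Markers of other cells moved with the groups, and in bulk RNA fewer cells of a type and less RNA per cell cannot be told apart. The B cell list of 30 rows summed to 194, 122 and 93.6 bases per Mb in Hopx High replicates 1, 2 and 3, against 295, 215 and 200.1 in Hopx Low. Of the 12 members tested 0 passed in limma, 12 had a negative difference and 8 were lower at an unadjusted p of 0.05. Over all 10846 genes tested, 7564 had a negative difference and 8.58% were lower at an unadjusted p of 0.05. Cd79a, which encodes a B cell receptor subunit, had 0.261, 0.635 and 1.10 in Hopx High and 8.29, 3.71 and 6.79 in Hopx Low. It missed the threshold with the replicate block (log2 difference -2.10, limma adjusted p = 0.0610) and passed without it (0.0320). The most covered members, Pou2af1 and Cd37, had log2 differences of -1.29 (limma adjusted p = 0.171) and -0.35 (0.686). Ms4a1, Cd79b and Pax5 were listed at 0 in 2 Hopx High libraries each and were above 0 in all 3 Hopx Low libraries. However, Pax5 in Hopx High replicate 1 (0.331) was above Hopx Low replicates 1 and 2 (0.250 and 0.161). The last of these values is below the 0.303 of 1 assumed read in that library. The list of dendritic cell, monocyte and macrophage markers, 34 rows, summed to 367, 236 and 295 in Hopx High and 240.2, 167 and 253 in Hopx Low, while the median over its 13 tested members was -0.52. Its most covered members, Cebpb and Cst3, had log2 differences of 1.16 (limma adjusted p = 0.163) and 0.11 (0.924), and T cells can express both. Of the defining markers, Clec9a was listed at 0 in all 6 libraries, Itgax in 5, Flt3 in 3 and Lyz2 in 1. Csf1r and Cd14 were above 0 in every library, at no more than 1.19 bases per Mb. Zbtb46 had 4.31, 7.03 and 1.45 bases per Mb in Hopx High and 1.97, 1.40 and 1.02 in Hopx Low, with overlapping groups. Outside this sum, 3 genes of antigen presentation were named after their values were seen. H2-Aa had 9.13, 4.95 and 0.737 in Hopx High and 11.9, 12.2 and 4.03 in Hopx Low. H2-Ab1 had 8.48, 1.53 and 1.82 against 16.0, 10.4 and 2.14. Both were lower in 3 of 3 pairs, as were 27.1% of all genes, with overlapping groups. Cd74 was lower in pair 1 only. The part of these cells in the differences of S1pr1, Klf2 and the other genes that fell, and in those that rose, was not tested.

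Several housekeeping and lineage lists held no call in limma. Of 56 cytosolic ribosomal protein genes 0 passed, with a median of -0.44 and 8 lower at an unadjusted p of 0.05, where 8.58% of all genes were lower. Their most covered members, Rplp1 and Rpl8, had log2 differences of -0.13 (limma adjusted p = 0.868) and 0.07 (0.929). Glycolysis, cholesterol synthesis, the proteasome and the T cell receptor with its proximal signalling had medians of -0.29, -0.31, -0.34 and -0.38, near the all-gene median of -0.25, and at most 3 members each were lower at an unadjusted p of 0.05. Ribosome biogenesis and nuclear oxidative phosphorylation had medians of -0.23 and -0.22, which were 0.02 and 0.03 with the median gene as the scale. Ncl, which encodes nucleolin and was the most covered gene of ribosome biogenesis together with Mybbp1a, had a log2 difference of -0.16 (limma adjusted p = 0.865), and without pair 3 it was higher in Hopx High by 0.51 (0.0207). In glycolysis, the most covered members Ldha and Aldoa had log2 differences of -0.44 (limma adjusted p = 0.599) and -0.30 (0.674), and both signs turned without pair 3. The Th17, Tfh and interferon-gamma lists had medians of 0.67, 0.01 and 0.07, with 3 of 10, 2 of 15 and 3 of 31 tested members higher at an unadjusted p of 0.05, where 4.18% of all genes were higher.

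**Figure D5:**
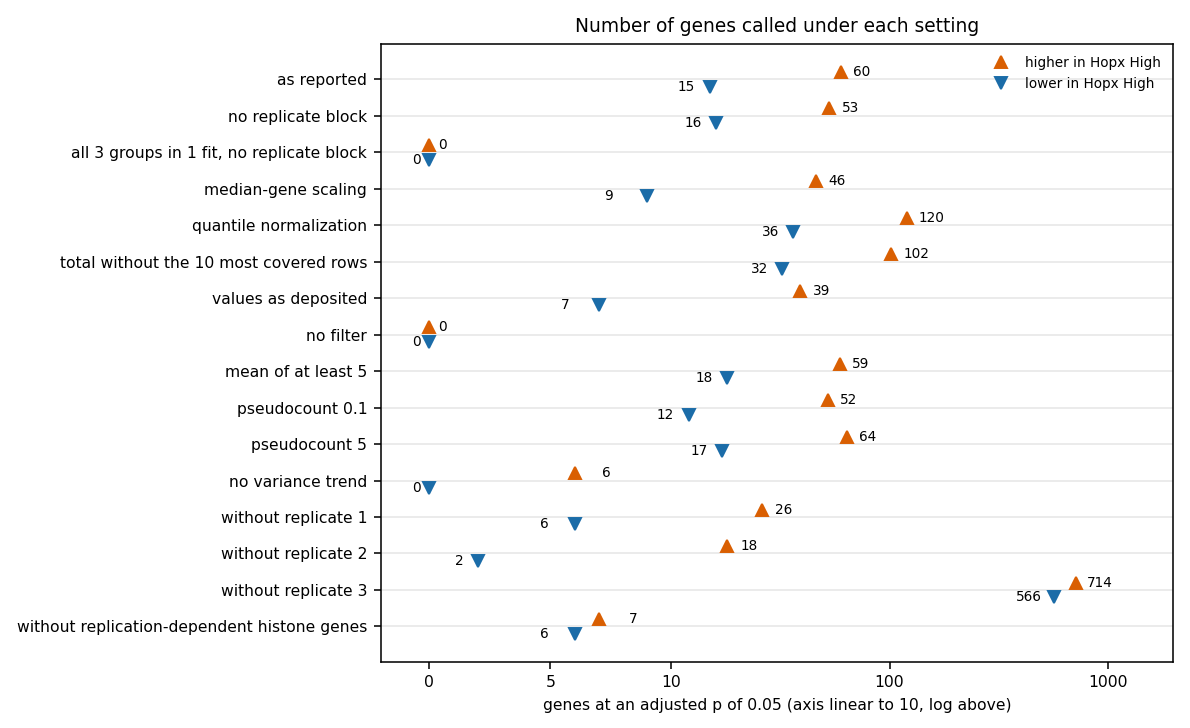
Number of genes at an adjusted p of 0.05 that were higher (triangles up) or lower (triangles down) in Hopx High under each processing setting, on an axis that is linear to 10 and logarithmic above. The reported fit has 60 and 15, the fits with the naive libraries and with no filter have 0 of either, and the fit without pair 3 has 714 and 566.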

How the data were processed

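RNA was sequenced in 6 libraries. Per the labels' protocols, ribosomal RNA was removed before an Ion total RNA kit was applied. The submitters' processing notes name bedtools and mm10. Not given in the sources used here are the aligner, the gene annotation and whether strand was used. The authors deposited a coverage signal per gene row, which, tested on the values, equals the summed base coverage plus 1 base, scaled to equal totals. Removing the added base gave whole bases in 100% of values within 1e-06, and these were set on bases per Mb. Bases are not reads, so no count test was run.

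Genes averaging 1 base per Mb or more over the 6 libraries entered a limma fit (limma 3.58.1, R 4.3.3) of log2(bases per Mb + 1), with the replicate number as a block, a trend in the variance and p-values adjusted after Benjamini and Hochberg (0.05). The added 1 shrinks the log2 differences of low genes. The fit was tested on simulated data. The numbers were taken to pair the libraries because same-numbered libraries deviated together in each of 3 pairs (r over 0.1). The r between other libraries was -0.372 to 0.0171. Deviations were taken from each group's own mean, so a positive r within pairs lowers the others, which are not separate support. The labels do not say what the number marks. Tables and figures were made with Python 3.11.15, pandas 2.3.3 and matplotlib 3.10.9.

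The genes named and the 45 gene lists were chosen with earlier results of these data known. The named genes are Hopx, Tbx21, Ifng, Il2 and Foxp3, the 12 genes called higher and the 12 called lower with the largest log2 difference, among those with the same sign in 3 pairs and a higher group mean of at least 5 bases per Mb, with at most 3 histone genes among the rises. From each list, up to 4 called members were named, or the 2 of highest mean if none passed, and up to 4 genes whose call turned on the block. Of 1061 listed genes 1024 matched by symbol, 19 by an older symbol, and 18 did not match. Alternatives were the block, the libraries in the fit, the scaling, the filter, the pseudocount, the variance trend and each pair left out. A fit without the histone genes was added after seeing the data.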

Additional observations from a re-analysis of the deposited data

How the results depend on the processing

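Against 60 genes higher and 15 lower in Hopx High with the replicate block, the fit with no replicate block gave 53 and 16, with 57 of the genes shared. Of the 75 called genes 18 missed the threshold without the block, 12 histones and 6 others, all given above. The fit without the block added 12 calls, among them Wtip (higher), BC094916 (lower), S100a10, Kif11, Il12rb2 and Cd79a. It could change no direction, because the balanced pairs give the same log2 difference with or without the block. Quantile normalization gave 120 higher and 36 lower, and totals without the 10 most covered rows gave 102 and 32. The median gene as the scale gave 46 and 9, and the values as deposited gave 39 and 7. With the median gene as the scale 33 of the 75 missed the threshold, namely 21 of the 41 histones and 12 of the 34 others (Il13, Cd70, Cit, Klf2, Sgk1, Igfbp4, Bcl2l11, Marcksl1, St6galnac6, D10Bwg1379e, Als2cl and Tecpr1). The all-gene median was -0.00 with the median gene as the scale, -0.04 with quantile normalization and -0.11 without the most covered rows, against -0.25 as reported. Limma called 0 and 0 in the fit with the naive libraries (487 at an unadjusted p of 0.05), 0 and 0 with no filter (1431), and 6 and 0 with no variance trend (1275), and the cause was not tested. A filter at a mean of 5 and pseudocounts of 0.1 and 5 gave 52 to 64 higher and 12 to 18 lower. Leaving out 1 pair gave 18 to 714 higher and 2 to 566 lower, the lowest without replicate 2 (18 and 2) and the highest without replicate 3, with 26 and 6 without replicate 1. With 2 pairs the spread rests on limma's pooling over genes. Without the histone genes, a fit chosen after seeing the data, 7 and 6 genes were called, since the adjustment then lacks their small p-values. All of these were among the 34 others of the reported fit. The rest of the 34 missed the threshold, among them Scin, Btg2, Ube2c, Cd70, Bcl2l11 and Sgk1. The direction of every called gene named was kept under every setting. The block, the variance trend and the removal of histone rows do not alter a log2 difference. All 75 called genes had the same sign in 3 of 3 pairs, so a left-out pair could not turn them. Those settings therefore do not test direction. The difference in Hopx was 0.30 to 0.85 and did not pass under any setting. Among named genes that did not pass, a left-out pair turned the sign of 24. Their log2 differences ranged over -0.73 to 0.14 for Il2, -0.24 to 0.45 for Slbp, -0.23 to 0.48 for Mcm2, -0.068 to 0.76 for Mcm5, -0.13 to 0.31 for Samhd1, -0.26 to 0.39 for Irf4, -0.64 to 0.09 for Cd37 and -0.39 to 0.91 for Cst3. They ranged over -0.43 to 0.33 for Ssrp1, -0.36 to 0.19 for Stat3, -0.30 to 1.00 for Btla, -0.77 to 0.020 for Tnfrsf9, -0.84 to 0.20 for Slfn2, -0.43 to 0.070 for Mybbp1a, -0.50 to 0.51 for Ncl and -0.39 to 0.24 for Rplp1. They ranged over -0.049 to 0.21 for Rpl8, -0.82 to 0.18 for Ldha, -0.49 to 0.038 for Aldoa, -0.65 to 0.0025 for Atp5a1, -0.21 to 0.093 for Thy1, -1.08 to 0.57 for Gas5, -0.58 to 0.033 for Dancr and -0.089 to 0.45 for Crtam. Of these, Ncl passed with its sign turned, without replicate 3 (limma adjusted p = 0.0207). A scaling turned the sign of 5 as well. With the median gene as the scale the log2 difference was 0.093 for Ssrp1, 0.12 for Stat3, 0.087 for Ncl, 0.11 for Rplp1 and 0.19 for Thy1. With quantile normalization it was 0.032 for Ssrp1, 0.025 for Stat3 and 0.10 for Thy1, and without the most covered rows 0.018 for Stat3, 0.014 for Rplp1 and 0.094 for Thy1. The shallowest library, at 203 megabases, is Hopx High replicate 3, which limits every low gene.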
